A study of Mus musculus with 4 samples.

Results

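The genes described are the mouse heat shock and chaperone families. They were taken by symbol, as every row of the expression table whose gene name begins with Hspa, Hspb, Hspd, Hspe, Hsph, Hsp90, Dnaja, Dnajb or Dnajc, leaving out 12 rows with -ps in the name. This gave 75 of 49671 rows and 74 different symbols, since Hspa14 is listed under 2 Ensembl identifiers. The prefixes also take in Hspbp1 and Hspbap1, which are named for binding a heat shock protein. The table comes from bulk RNA sequencing of basal epithelial cells, the outer layer of the prostate epithelium, sorted from the ventral lobes of 20 male mice. Gland tips gave 2 libraries (tip 1 and tip 2) and ducts the other 2 (duct 1 and duct 2), and the comparison asks how basal cells of the tips differ from those of the ducts. Cells carrying CD45, CD31 or CD140a had been sorted away, and the basal gate took cells with high EpCAM and high CD49f. No treatment, strain or transgene is named for any of these libraries. The sample titles give postnatal day 13 and the age field days 10 to 12, and the cell type field says tip for all 4 libraries, so the groups follow the titles. Whether the libraries of a group stem from different animals is not stated, so a p-value here reflects only how far these samples spread, which may be technical.

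Chaperones of the HSP70 family bind unfolded stretches of protein in a cycle driven by ATP. J proteins (the DNAJA, DNAJB and DNAJC families) bring clients to HSP70 and start ATP hydrolysis, and HSP110 proteins release the nucleotide. HSP90 acts later on a narrower set of clients that includes steroid receptors such as the androgen receptor of the prostate, HSP60 and HSP10 form the folding chamber of mitochondria, and small HSPs hold unfolded proteins without using ATP. Many of these genes are induced in protein stress by the heat shock factor HSF1, which binds repeats of the letters GAA and TTC, while chaperones of the endoplasmic reticulum (ER) are induced by the unfolded protein response through an element called the ERSE.

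The promoter letters are shown because they divide the members into those with a heat shock element, those with an ERSE and those with neither, a division that expression did not enter. The RefSeq promoter table (build GRCm38.p6) had entries for 60 of the 74 symbols, 77 windows in all, and the 250 bases before each start were searched on both strands. A pair of facing heat shock repeats was searched as GAANNTTC and as TTCNNGAA, which can overlap each other, and the ERSE as CCAAT and CCACG with 9 bases between them. GAANNTTC stood in 12 of the 77 member windows (15.6%) and in 6.69% of all 32851 windows, and TTCNNGAA in 8 (10.4%) and in 7.17%. A run of 3 repeats stood in 4 member windows (5.19%), those of Dnajb6, Hspd1 and Hspe1, and in 0.466% of all windows. These shares count windows, and windows can hold the same site. The Dnajb6 windows overlap and hold the same run, and the Hsph1 windows overlap and hold the same pair. Hspd1 and Hspe1 share their site, read on opposite strands, so such sites are counted more than once. The ERSE stood in 3 (3.90%), those of Hspa5, Hsp90b1 and Dnajc3, and in 0.113% of all. Each sequence is written 5′ to 3′ on the strand of its gene, with the matched letters in capitals. The first 3 are whole windows: Hspa1a at chr17:34972157-34972406 (minus strand), Hspa1b at chr17:34959239-34959488 (minus strand) and Hspb1 at chr5:135887669-135887918 (plus strand).
Hspa1a: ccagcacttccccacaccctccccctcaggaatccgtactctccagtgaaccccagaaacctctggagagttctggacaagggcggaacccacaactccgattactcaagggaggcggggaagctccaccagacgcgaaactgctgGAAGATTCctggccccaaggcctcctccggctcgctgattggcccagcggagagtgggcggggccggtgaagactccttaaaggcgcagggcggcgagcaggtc
Hspa1b: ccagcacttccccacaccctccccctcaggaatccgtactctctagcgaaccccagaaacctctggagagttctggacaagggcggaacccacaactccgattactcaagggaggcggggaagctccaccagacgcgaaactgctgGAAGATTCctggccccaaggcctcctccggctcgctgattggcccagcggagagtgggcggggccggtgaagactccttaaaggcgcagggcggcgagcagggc
Hspb1: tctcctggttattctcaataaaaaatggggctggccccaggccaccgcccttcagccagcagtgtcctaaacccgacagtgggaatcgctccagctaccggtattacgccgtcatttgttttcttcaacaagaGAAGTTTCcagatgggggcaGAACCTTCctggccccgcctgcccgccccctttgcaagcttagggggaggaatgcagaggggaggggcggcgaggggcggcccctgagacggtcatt
The Hspa1a and Hspa1b windows had the same letter at 247 of 250 positions (98.8%), with GAANNTTC beginning 104 bases before the start in both, and Hspb1 held 2 such pairs. Shorter stretches show the heat shock elements of 7 further members whose levels are described, while Dnaja4, Dnajc27 and Hspb3 also held a pair. The stretches are Dnaja1 at chr4:40722333-40722362 (plus strand), Dnajb4 at chr3:152193846-152193875 (minus strand), Dnajb6 at chr5:29735844-29735873 (plus strand), Dnajc10 at chr2:80315273-80315302 (plus strand), Hspb6 at chr7:30553170-30553199 (plus strand), Hsph1 at chr5:149636351-149636380 (minus strand) and Hspe1 at chr1:55088053-55088082 (plus strand). The Hspe1 stretch lies between the start of Hspe1 and an Hspd1 start, which are read in opposite directions. Another Hspd1 start lies inside Hspe1, and its window held no match.
Dnaja1: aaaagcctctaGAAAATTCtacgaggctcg
Dnajb4: gttcgttcgttcgctgTTCTAGAAagtaca
Dnajb6: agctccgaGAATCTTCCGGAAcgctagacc
Dnajc10: aacaattttatTTCTAGAAaactttaatta
Hspb6: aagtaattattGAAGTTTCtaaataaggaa
Hsph1: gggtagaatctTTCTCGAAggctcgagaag
Hspe1: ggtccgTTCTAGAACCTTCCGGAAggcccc
The ERSE is shown for Hspa5 at chr2:34772020-34772049 (plus strand), Dnajc3 at chr14:118937822-118937851 (plus strand) and Hsp90b1 at chr10:86705510-86705694 (minus strand), where it occurred once on each strand.
Hspa5: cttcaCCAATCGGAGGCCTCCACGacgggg
Dnajc3: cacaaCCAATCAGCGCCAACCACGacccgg
Hsp90b1: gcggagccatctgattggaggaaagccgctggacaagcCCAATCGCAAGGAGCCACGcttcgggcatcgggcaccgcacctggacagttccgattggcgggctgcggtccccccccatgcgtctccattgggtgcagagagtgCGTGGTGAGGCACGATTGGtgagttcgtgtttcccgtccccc
A match of letters is a description of the window and does not show that a factor binds there. A member was placed by a match in any of its windows, and other windows of Dnaja1, Dnajb4 and Hspb6 held none. All 30 bases shown for Dnaja1, Dnajb6, Hspe1 and Hspa5, and 26 of those for Hsph1, lie in annotated exons.

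Levels are given as CPM, reads per 1000000 reads of a library, obtained by dividing the deposited values by 20. The values are whole reads scaled to a common total, and the recovered totals ran from 1439004 to 1742531 reads, so that 1 read was worth 0.574 to 0.695 CPM and a count of 0 allows a level of up to 3 reads, or 1.72 to 2.08 CPM. The libraries correlated at Pearson r of 0.882 (the ducts) to 0.935 (the tips) across the 17865 genes tested, those whose mean reached 1 CPM, and genes are not independent replicates. Differences are log2 folds, tip minus duct, on log2(CPM + 1), a scale that understates the change of low genes, and were tested with limma, a linear model that shares the estimate of spread among genes, with Benjamini-Hochberg adjustment. The median of all tested genes was 0.20 with the deposited scaling and 0.03 with TMM, a scaling that assumes most genes do not differ, so a member's fold is read against a general shift of that size. Summed CPM of 10 basal markers was 10467 and 9658 in tip 1 and tip 2 and 14537 and 5811 in duct 1 and duct 2, and every one of them was above 0 in each library. Summed fibroblast markers, although CD140a+ cells had been removed, were 4557 and 6234 in the tips and, in the ducts, 2667 and 10588, and smooth muscle markers 1664 and 2810 in the tips and, in the ducts, 618.2 and 2541. Summed luminal epithelial markers were 1676 and 2027 in the tips and, in the ducts, 3046 and 1464. Summed immune markers were 217 and 107 in the tips and, in the ducts, 92 and 114. Pancreatic islet transcripts (Ins1, Ins2, Iapp) were at 0 except in duct 2, where they summed to 328.8 CPM. In bulk samples, fewer cells of a type and less RNA per cell cannot be told apart.

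Of the 75 members, 63 were tested. The other 12 were under the level needed, and 3 of them, Dnajc5b, Hspb2 and Hspb3, had no read in any library. Together the members took 0.756% of the reads in tip 1 (Wilson 95% interval 0.742 to 0.770%), 0.717% in tip 2 (0.705 to 0.730%), 0.753% in duct 1 (0.740 to 0.767%) and 0.740% in duct 2 (0.726 to 0.753%). The tip and duct shares overlapped. Such intervals and limits cover counting error only.

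No member passed an adjusted p of 0.05 in limma (0 of 63, beside 0.0% of all 17865 tested genes). At an unadjusted p under 0.05 limma counted 2 members, 3.17% of them, beside 7.42% of all genes. Dnajc10 was higher in tip, where 5.82% of all genes were, and Hspb8 lower, where 1.61% were. With TMM scaling limma counted 3 members, Hspb8, Hsp90aa1 and Dnajc21, all lower in tip, beside 6.21% of all genes in either direction and 3.02% lower. The count tests edgeR and DESeq2, run on the recovered reads, also passed 0 members after adjustment, beside 0.0% and 0.0112% of all genes, and at an unadjusted p under 0.05 counted 3 and 1 members, all lower in tip, beside 5.92% and 2.33% of all genes in either direction and 2.93% and 1.66% lower. Without duct 2, limma passed 2 members, Dnajc10 (adjusted p = 0.0226) and Dnajc16 (adjusted p = 0.00877), 3.17% of the members beside 5.06% of all genes, while over the 13 alternatives their limma, edgeR or DESeq2 adjusted p ran up to 1.0. By level alone, 20 members (31.7%) had both tip values above both duct values, beside 28.5% of all genes, and 9 (14.3%) had both below, beside 11.1%. With TMM scaling these counts were 11 and 15, beside 20.4% and 18.0%. The members' shares lay close to those of all genes. Their median fold was 0.19, beside 0.20 for all genes.

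**Figure D1:**
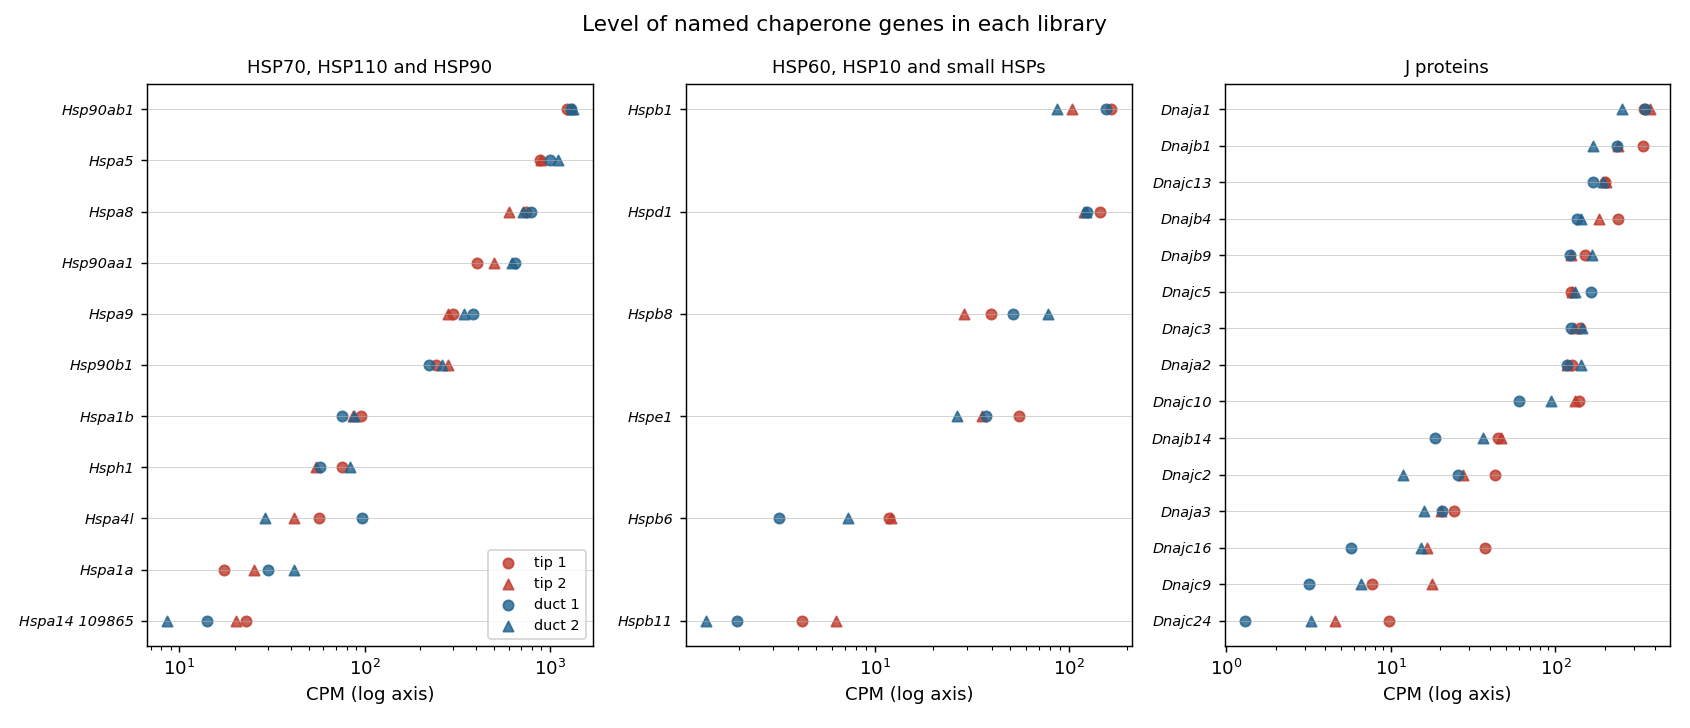
Level of named members in each library, in CPM on log axes, with tip 1 and tip 2 in red and duct 1 and duct 2 in blue. Hsp90aa1, Hspa5 and Hspb8 are lower and Dnajb4 and Dnajc10 higher in both tip libraries, while many others overlap.

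The 4 members with the highest mean CPM, Hsp90ab1, Hspa5, Hspa8 and Hsp90aa1, are HSP70 and HSP90 genes, and each had a fold below 0. Of 13 tested HSP70 members 4 (30.8%, beside 11.1% of all genes) had both tip values below both duct values and 2 (15.4%, beside 28.5%) had both above, at a median fold of -0.13. Of 3 HSP90 members 2 (66.7%, beside 11.1% of all genes) had both below, at a median of -0.05. With TMM scaling 5 HSP70 members (38.5%, beside 18.0% of all genes) were wholly below and 2 (15.4%, beside 20.4%) wholly above. The HSP90 count below was again 2 (66.7%, beside 18.0%). Summed HSP70 transcripts measured 2482 and 2343 CPM in the tips and, in the ducts, 2766 and 2685 CPM, and summed HSP90 transcripts 1899 and 2089 CPM in the tips and, in the ducts, 2181 and 2219 CPM. Both tip libraries were below both duct libraries in either sum. Per kilobase of exon in the GENCODE annotation, the highest mean level was that of Hsp90ab1 at 433 CPM per kilobase. It was ahead of Hspa5 at 231, Hspa8 at 166, Hsp90aa1 at 139 and Hspb1 at 125. This compares genes only roughly, since the length counts every annotated exon of a gene. Sequence shared with other genes, as for Hspa8, Hsp90aa1 and Hspb1, could also have cost reads.

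Hsp90aa1, the inducible cytosolic HSP90, measured 405.9 and 501.6 CPM in tip 1 and tip 2 and 653 and 622.6 CPM in duct 1 and duct 2. Both tip libraries were lower, with a log2 fold of -0.50 ± 0.26 (SE) and a limma adjusted p of 0.682. Hsp90ab1, the constitutive cytosolic form, measured 1249 and 1304 CPM in the tips and, in the ducts, 1305 and 1333 CPM, a fold of -0.05 ± 0.25. The groups did not overlap, yet tip 2 and duct 1 differed by less than counting error. Hsp90b1, the HSP90 of the ER, measured 244.7 and 283.5 CPM in the tips and, in the ducts, 223.2 and 262.9 CPM, and its groups overlapped.

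The ratio of Hsp90aa1 to Hsp90ab1 within a library does not move with scaling. It was 0.325 and 0.385 in the tips and, in the ducts, 0.501 and 0.467, lower in both tip libraries by 0.45 on the log2 scale. The exact 2-sided permutation p was 0.33, the smallest that 2 libraries against 2 allow, and 0.667 adjusted over the 4 ratios examined. Of the 50-base words of Hsp90aa1 transcripts, 47.5% also occur in other annotated genes, mostly in the pseudogene Gm12346, against 3.44% for Hsp90ab1, so reads of Hsp90aa1 could have been split or dropped in counting.

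Hspa5, the HSP70 of the ER also called BiP, measured 890.9 and 903.9 CPM in the tips and, in the ducts, 1002.5 and 1107 CPM. Its libraries separated by group, with a fold of -0.23 ± 0.25 that was within its error. Hspa9, the mitochondrial HSP70, measured 298.9 and 281.2 CPM in the tips and, in the ducts, 387.8 and 344.6 CPM, again lower in both tip libraries, with a fold of -0.33 ± 0.26. Hspa8, the constitutive cytosolic HSP70, measured 745 and 605.5 CPM in the tips and, in the ducts, 792 and 719.4 CPM, and tip 1 lay between the duct libraries. Of the 50-base words of Hspa8 39.4% also occur in other genes, against 0 for Hspa5. Hspa2, an HSP70 known from the testis, measured 27.2 and 34.5 CPM in the tips and, in the ducts, 37 and 44.8 CPM, lower in both tip libraries.

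The stress-inducible pair Hspa1a and Hspa1b, whose promoter windows are nearly identical, had folds of opposite sign with the deposited scaling, while with TMM both were below 0. Hspa1a measured 17.4 and 25.3 CPM in the tips and, in the ducts, 30 and 41.6 CPM, lower in both tip libraries, with a fold of -0.72 ± 0.40. Hspa1b measured 95.3 and 86.7 CPM in the tips and, in the ducts, 75.9 and 87.7 CPM, with overlapping groups and a fold of 0.15 ± 0.29 that became -0.04 with TMM scaling. The transcripts share 66.3% (Hspa1a) and 62.3% (Hspa1b) of their 50-base words with other genes, mainly each other, so how reads were divided between them is uncertain. Their sum over Hspa8 was 0.151 and 0.185 in the tips and, in the ducts, 0.134 and 0.180, with overlapping groups and an exact permutation p of 0.667 (0.889 adjusted over the 4 ratios).

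Hspa4 and Hspa4l, which act as nucleotide exchange factors like HSP110, overlapped between groups. Hspa4 measured 225.2 and 238.8 CPM in the tips and, in the ducts, 251.3 and 174 CPM, and Hspa4l 57 and 41.4 CPM in the tips and, in the ducts, 97 and 29 CPM. Hsph1, the HSP110 gene, measured 75.8 and 54.6 CPM in the tips and, in the ducts, 57.4 and 83.7 CPM, a fold of -0.11 ± 0.34. For all 3 the spread within the ducts exceeded the difference between groups. The ratio of Hsph1 to Hspa4 was 0.336 and 0.229 in the tips and, in the ducts, 0.229 and 0.481, with an exact permutation p of 1.0.

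Of the rest of the HSP70 family, Hspa14, a ribosome-associated HSP70, was higher in both tip libraries under each of its identifiers. One identifier (ENSMUSG00000109865) measured 22.95 and 20.1 CPM in the tips and, in the ducts, 14.1 and 8.6 CPM, and the other (ENSMUSG00000051396, named Gm45902 in GENCODE M21) 10.5 and 11.5 CPM in the tips and, in the ducts, 8.3 and 7.95 CPM. These 2 overlap on the genome. Hspa13 lay between 61.3 and 77.1 CPM in all libraries. Hspa12a, a distant HSP70 relative, measured 9.75 and 9.2 CPM in the tips and, in the ducts, 5.75 and 32.3 CPM, and Hspa12b, known from endothelium, 9.05 and 8.05 CPM in the tips and, in the ducts, 2.6 and 11.2 CPM. Both were lowest in duct 1 and highest in duct 2. The 10 endothelial markers summed to 104.5 and 104.1 CPM in tip, 41.1 CPM in duct 1, where Plvap was at 0, and 320.5 CPM in duct 2, and their part in the Hspa12b levels was not tested.

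J proteins, the partners of HSP70, had a higher median fold. Of 37 tested J proteins 16 (43.2%, beside 28.5% of all genes) had both tip values above both duct values and 2 (5.41%, beside 11.1%) had both below. A fold above 0 was found for 32 of them, 86.5%, beside 63.1% of all genes, and their median fold was 0.36. With TMM scaling the median was 0.19, 24 (64.9%) had a fold above 0 beside 51.7% of all genes, and the counts with separated groups were 7 above (18.9%) and 6 below (16.2%), close to the 20.4% and 18.0% of all genes. Their summed transcripts measured 2660 and 2351 CPM in the tips and, in the ducts, 2129 and 2063 CPM, higher in both tip libraries. The median fold was 0.27 for 4 DNAJA genes, 0.38 for 11 DNAJB genes and 0.43 for 22 DNAJC genes.

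The general shift varied with level, and many DNAJC genes are low. Among genes of 1 to 5 CPM the median fold was 0.92 for 5 J proteins, 0.71 for 2 other members and 0.11 for all 6080 genes. Among genes of 5 to 20 CPM it was 0.41 for 8 J proteins, 0.39 for 7 other members and 0.33 for all 4939 genes. Among genes of 20 to 100 CPM the median fold was 0.33 for 14 J proteins, -0.12 for 8 other members and 0.25 for all 4749 genes. Among genes of at least 100 CPM it was 0.14 for 10 J proteins, -0.05 for 9 other members and 0.06 for all 2097 genes. The J protein median was above that of all genes in each of the 4 ranges, while J proteins and other members were nearly alike from 5 to 20 CPM.

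**Figure D2:**
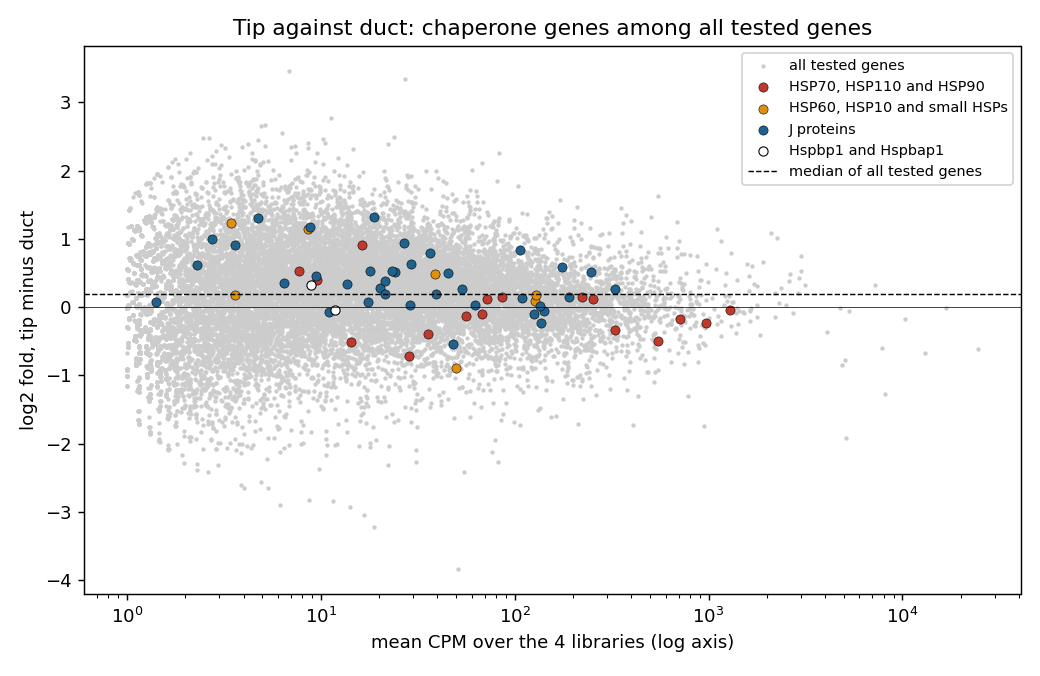
Log2 fold, tip minus duct with the deposited scaling, against mean CPM on a log axis, for all tested genes (grey) and the tested members by family, with the median of all genes (0.20) dashed. Most J proteins lie above 0 and the most abundant HSP70 and HSP90 genes below it, while 8 of the J proteins above 0 fall to or below it with TMM scaling.

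Summed J protein transcripts over summed HSP70 transcripts, a ratio chosen after the values had been seen and given with no test, was 1.07 and 1.00 in the tips and, in the ducts, 0.770 and 0.768. The tip libraries were higher by 0.43 on the log2 scale, and the ratio is free of library scaling. With Hspa5, Hspa8 and Dnajb1 left out of the sums, the difference was 0.35.

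**Figure D3:**
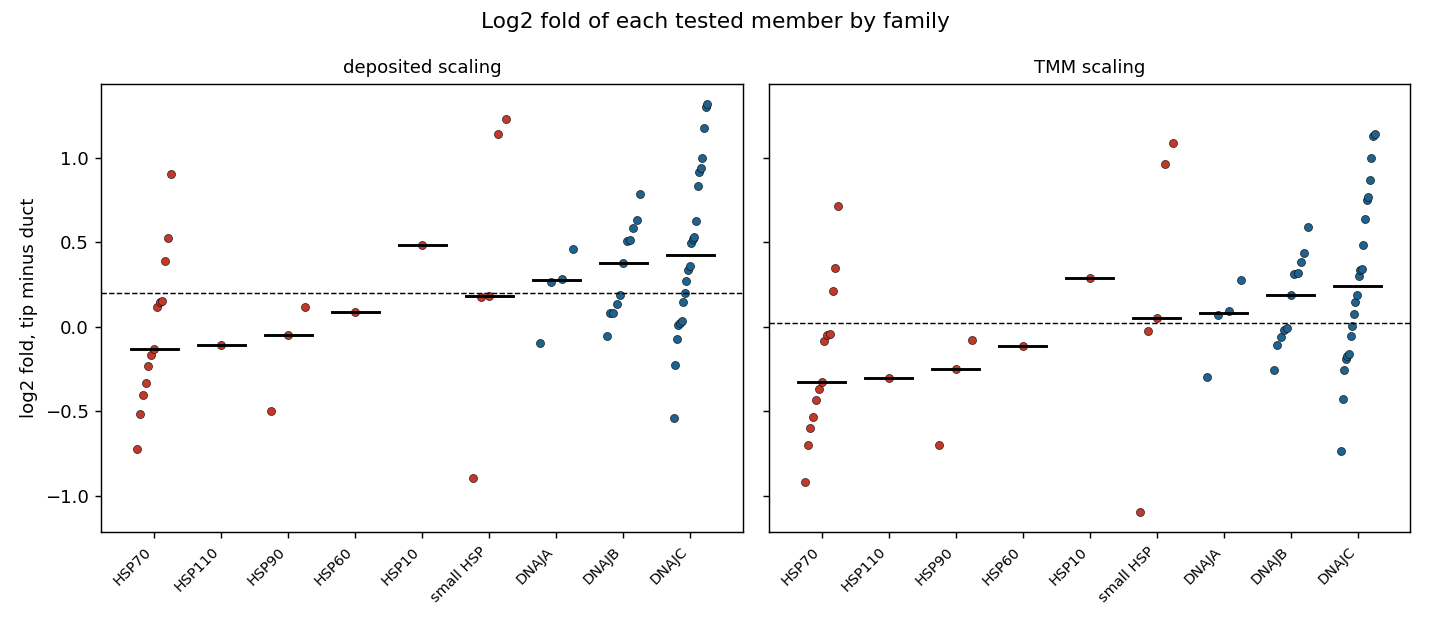
Log2 fold, tip minus duct, of each tested member (points) by family, with family medians (bars) and the median of all tested genes (dashed), under the deposited scaling (left) and TMM (right). The medians of HSP70 (-0.13) and HSP90 (-0.05) lie below the median of all genes and those of DNAJB (0.38) and DNAJC (0.43) above it, and this order holds in both panels.

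Among the DNAJB genes, Dnajb4, a cytosolic HSP70 partner, measured 238.4 and 184.8 CPM in the tips and, in the ducts, 135.9 and 143.7 CPM. Both tip libraries were higher, with a fold of 0.58 ± 0.28 and a limma adjusted p of 0.669. Dnajb1, the main heat-inducible J protein, measured 339.9 and 241.1 CPM in the tips and, in the ducts, 237.3 and 168.7 CPM. Its fold was 0.51 ± 0.31, with tip 2 and duct 1 nearly equal, and its groups overlapped with TMM scaling. Dnajb6, which keeps aggregation-prone proteins soluble, measured 125.1 and 105.1 CPM in the tips and, in the ducts, 109.7 and 98.9 CPM, with overlapping groups. The ratio of Dnajb1 to Dnajb6 was 2.72 and 2.30 in the tips and, in the ducts, 2.16 and 1.71, higher in both tip libraries, with an exact permutation p of 0.33 (0.667 adjusted over the 4 ratios). Dnajb14, a J protein of the ER membrane, measured 44.5 and 46.5 CPM in the tips and, in the ducts, 18.5 and 36.3 CPM, higher in both tip libraries.

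**Figure D4:**
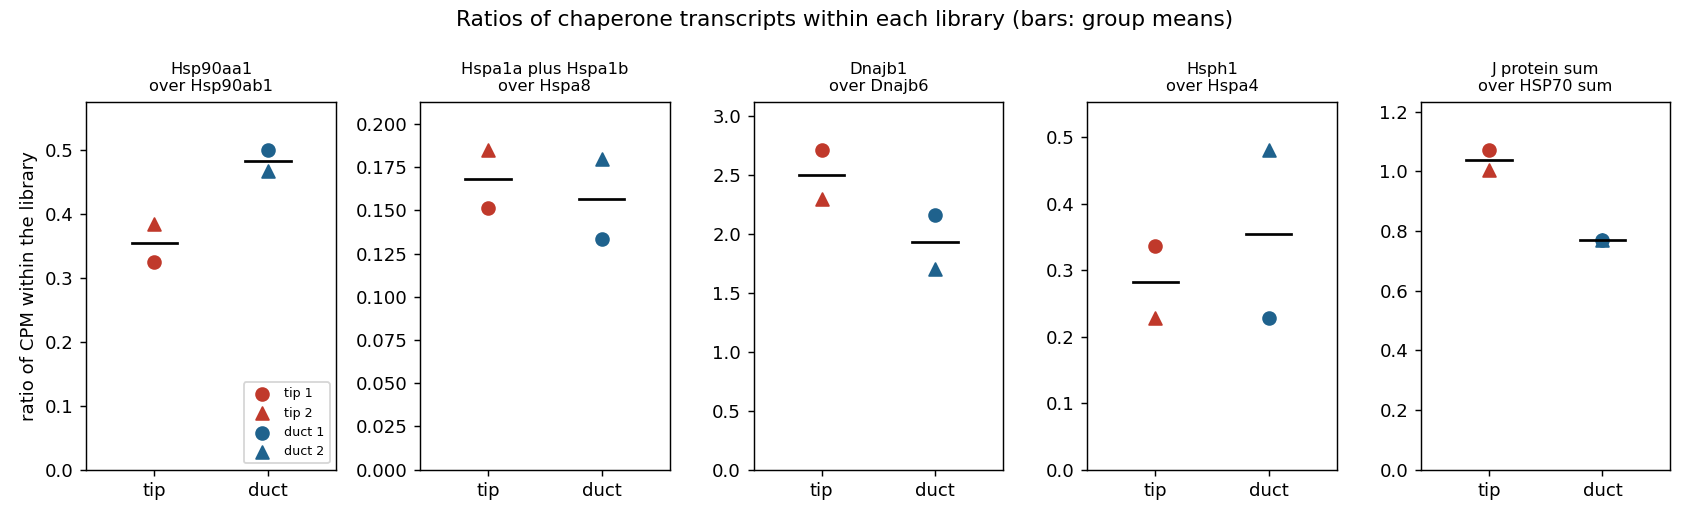
Ratios of CPM within each library for 4 pairs of members and for the J protein and HSP70 sums, on axes from 0, with tip in red, duct in blue and group means as bars. Hsp90aa1 over Hsp90ab1 is lower and Dnajb1 over Dnajb6 higher in both tip libraries, the J protein to HSP70 ratio is higher in both, and the other ratios overlap.

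The smallest p among the members was that of Dnajc10, also called ERdj5, which reduces disulfide bonds in the ER. It measured 139 and 130.9 CPM in the tips and, in the ducts, 59.95 and 94.3 CPM, from 94 to 228 reads in a library. Both tip libraries were higher, with a fold of 0.83 ± 0.32, an unadjusted limma p of 0.0278 and an adjusted p of 0.667. Dnajc16 measured 37.6 and 16.7 CPM in the tips and, in the ducts, 5.75 and 15.2 CPM, a fold of 1.32 ± 0.58, with tip 1 and duct 1 far apart and tip 2 close to duct 2. Dnajc2, a ribosome-associated J protein, measured 43.1 and 27.6 CPM in the tips and, in the ducts, 25.6 and 11.9 CPM. Dnajc9, which handles histones, measured 7.65 and 17.8 CPM in the tips and, in the ducts, 3.2 and 6.6 CPM. Dnajc24, of diphthamide synthesis, measured 9.75 and 4.6 CPM in the tips and, in the ducts, 1.3 and 3.3 CPM, where duct 1 was under the limit of 3 reads. These 3 genes were higher in both tip libraries and rest on few reads. With TMM scaling the groups of Dnajc16, Dnajc2 and Dnajc9 overlapped.

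Dnajb9 and Dnajc3 are among the J proteins of the ER lumen that the unfolded protein response induces. Dnajb9 measured 151.5 and 124 CPM in the tips and, in the ducts, 121.8 and 166.7 CPM. Dnajc3, whose ERSE is shown above, measured 140.4 and 129.7 CPM in the tips and, in the ducts, 123.8 and 145 CPM, a fold of 0.01 that became -0.19 with TMM scaling. The groups overlapped for both. Other J proteins of the ER did separate, among them Dnajc10, described above, and Dnajb11. Dnajb11 measured 25.05 and 31.6 CPM in the tips and, in the ducts, 23 and 16.5 CPM, and overlapped with TMM scaling. Of 10 members assigned to the ER, 4 lay wholly above and 1 wholly below the duct values in tip. Of all genes 28.5% lay wholly above and 11.1% wholly below. With TMM scaling 2 of these members lay above and 3 below, beside 20.4% and 18.0% of all genes. The other J proteins with both tip values above both duct values were Dnaja4, Dnajb12, Dnajc7, Dnajc8, Dnajc13, Dnajc15 and Dnajc19. Their folds ran from 0.15 (Dnajc13) to 0.92 (Dnajc15), and those of Dnajc13 and Dnajb12 were below 0 with TMM scaling.

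The 2 J proteins that were lower in both tip libraries were Dnajc21 and Dnajc5. Dnajc21, known from ribosome assembly, measured 39.7 and 38.5 CPM in the tips and, in the ducts, 64.5 and 50.8 CPM, a fold of -0.54 ± 0.33. Dnajc5, the cysteine string protein of secretory vesicles, measured 124.4 and 125.7 CPM in the tips and, in the ducts, 163.9 and 131.1 CPM, with tip 2 close to duct 2. The most abundant DNAJC gene was Dnajc13, an endosomal J protein, at 198.8 and 201.5 CPM in the tips and, in the ducts, 167.8 and 195 CPM, a fold of 0.15 that became -0.05 with TMM scaling.

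Among the DNAJA genes, Dnaja1, Dnaja2 and Dnaja3 overlapped between groups with the deposited scaling. Dnaja4, at 11.15 and 10.95 CPM in the tips and, in the ducts, 8.3 and 7.25 CPM, was higher in both tip libraries. With TMM scaling Dnaja4 was again higher and Dnaja2 was lower in both tip libraries. Dnaja1 measured 342.6 and 375.9 CPM in the tips and, in the ducts, 349.5 and 254.3 CPM, and Dnaja2 125.1 and 117.1 CPM in the tips and, in the ducts, 116.7 and 143.7 CPM. Both are cytosolic HSP70 partners, and in both duct 2 lay apart from the other libraries. Dnaja3, the mitochondrial form, measured 24.4 and 20.1 CPM in the tips and, in the ducts, 20.5 and 15.9 CPM. Dnaja4 shares 44.1% of its exon bases with Wdr61 on the opposite strand, and since the strand setting of the counting is not known, reads of these genes cannot be told apart.

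The small HSPs did not share a direction. Hspb8, which with its partner BAG3 directs damaged proteins to autophagy, measured 39.7 and 28.7 CPM in the tips and, in the ducts, 51.7 and 78.4 CPM. Both tip libraries were lower, with a fold of -0.90 ± 0.36, an unadjusted limma p of 0.0366 and an adjusted p of 0.667. It was under an unadjusted p of 0.05 in DESeq2 and edgeR as well. Bag3, singled out after its values were seen, measured 116.1 and 153.3 CPM in the tips and, in the ducts, 178.6 and 266.9 CPM, lower in both tip libraries as well. Hspb1, the most abundant small HSP, measured 166.1 and 104.5 CPM in the tips and, in the ducts, 156.3 and 87 CPM, so that the 2 libraries of each group differed more than the groups did. Of its 50-base words 50.1% also occur in other genes, mostly the pseudogene Hsp25-ps1.

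Hspb6, known from muscle, measured 11.9 and 12.1 CPM in the tips and, in the ducts, 3.2 and 7.25 CPM, higher in both tip libraries, with a fold of 1.14 ± 0.55. Hspb7, also a muscle gene, measured 1.4 and 5.75 CPM in the tips and, in the ducts, 0.65 and 6.6 CPM. Both were lowest in duct 1, the library in which the smooth muscle markers were lowest, and the part of those cells was not tested. Hspb11, a subunit of the intraflagellar transport complex, measured 4.2 and 6.35 CPM in the tips and, in the ducts, 1.95 and 1.35 CPM, higher in both tip libraries with duct 2 under the limit of 3 reads.

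Both genes of the mitochondrial chaperonin overlapped between groups with the deposited scaling, while with TMM scaling Hspd1 was lower in both tip libraries. Hspd1, the HSP60, measured 144.6 and 119.4 CPM in the tips and, in the ducts, 124.4 and 123.2 CPM, a fold of 0.09 that became -0.11 with TMM scaling. Hspe1, its HSP10 lid, measured 55.6 and 35.6 CPM in the tips and, in the ducts, 37.7 and 26.4 CPM. Its fold was 0.48 ± 0.38, with overlapping groups.

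Grouped by promoter letters, 13 tested members with a heat shock pair had a median fold of 0.17, and 4 of them lay wholly above and 1 wholly below the duct values in tip, where 28.5% and 11.1% of all genes lay. The 3 with an ERSE had a median of 0.01, with 1 lower (Hspa5), and 37 with a window and neither motif a median of 0.34, with 15 higher (40.5%) and 3 lower (8.11%). With TMM scaling, where the shares of all genes were 20.4% and 18.0%, the medians were -0.02 with a heat shock pair (4 higher and 3 lower), -0.19 with an ERSE (2 lower) and 0.15 with neither (7 higher and 5 lower). The 13 members listed as HSF1-inducible had a median of 0.09, with 2 higher and 3 lower, and with TMM of -0.11, with 1 higher and 5 lower. Dnajb1, a member of that list, had none of the searched letters in its window. Hspa8, Hsp90aa1, Hsp90ab1, Hspa9, Dnajc5 and Dnajc2 were among the symbols with no window, and so are in none of the promoter groups. Of these genes, Hspa8 overlapped between tip and duct, Dnajc2 was higher and the others were lower in both tip libraries.

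Genes that work with the chaperones were examined from lists chosen by function. No gene of these lists passed the adjusted threshold in limma, and their counts are to be read beside the 28.5% of all genes wholly above and 11.1% wholly below the duct values (20.4% and 18.0% with TMM scaling). Of 25 heat shock factors and cytosolic co-chaperones 11 (44.0%) had both tip values above and 2 (8.0%) had both below the duct values, at a median fold of 0.23, and with TMM scaling 4 and 4 did, at a median of 0.03. Bag1, a nucleotide exchange factor of HSP70, measured 38.3 and 40.2 CPM in the tips and, in the ducts, 17.3 and 17.8 CPM. Fkbp4, an HSP90 partner at steroid receptors, measured 77.2 and 59.7 CPM in the tips and, in the ducts, 37.7 and 40.2 CPM, and Hsbp1, which binds HSF1, 41.1 and 38.5 CPM in the tips and, in the ducts, 19.8 and 24.4 CPM. These 3 were picked for the smallest unadjusted limma p of their list, 0.0138, 0.0383 and 0.0488, each with an adjusted p of 0.667. Their tip values all exceeded their duct values, a separation that such a choice favors. Bag3 came next in limma, at an unadjusted p of 0.0503, and went the other way. Hsf1 itself measured 33.4 and 27 CPM in the tips and, in the ducts, 30.7 and 36.3 CPM, with overlapping groups.

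Of 14 subunits of the cytosolic chaperonin TRiC and of prefoldin 1 (7.14%) was above and 4 (28.6%) were below the duct values in both tip libraries, and 1 and 6 with TMM scaling. The higher subunit was Pfdn6, at 7.65 and 7.5 CPM in the tips and, in the ducts, 1.95 and 1.35 CPM. It rests on few reads, with duct 2 under the limit of 3 reads. Of 21 ER folding and stress genes 4 (19.0%) were higher and 4 (19.0%) lower, with a median of -0.0023, and with TMM scaling 2 were higher and 9 lower, with a median of -0.20. Pdia4, a disulfide isomerase, measured 76.5 and 67.2 CPM in the tips and, in the ducts, 31.3 and 53.4 CPM. Xbp1 and Atf6, factors of the unfolded protein response, were lower in both tip libraries. Xbp1 measured 110.5 and 137.8 against 178 and 167.4 CPM and Atf6 94.6 and 130.9 against 148.6 and 156.8 CPM. These 3 genes were picked for the smallest unadjusted limma p of their list, 0.0547, 0.118 and 0.155. Elsewhere in the list, Atf4 was also lower and Ddit3 higher in both tip libraries, while Ern1 and Eif2ak3 overlapped. Of 10 mitochondrial chaperones and proteases 4 were higher and 1 lower (2 and 1 with TMM scaling), among the higher ones Trap1, the mitochondrial HSP90, at 57.7 and 47.1 CPM in the tips and, in the ducts, 25.6 and 35.6 CPM.

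Immediate early genes, which like heat shock genes respond quickly to stress, summed to 30173 and 18765 CPM in the tips and, in the ducts, 19194 and 13431 CPM. Of 19 such genes 8 (42.1%, beside 28.5% of all genes) had both tip values above and 1 (5.26%, beside 11.1%) had both below the duct values, at a median fold of 0.52, with the same counts under TMM scaling. The sum was highest in tip 1 and lowest in duct 2, as was Dnajb1, and its part in the Dnajb1 level was not tested.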

How the data were processed

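RNA was measured in 4 libraries of sorted basal cells, grouped by their titles into tip and duct. Per the submitters' processing notes, STAR, HTSeq and the build GRCm38 (mm10) were used; their versions, the annotation and the strand setting were not given in the sources used. The authors' deposited signal per gene is a read count scaled to a common total (20008326 to 20011820 per library) and rounded up, as found from the values. Reads were recovered as whole numbers within 0.1 read for 100% of values, and rescaling them returned at least 99.9% of the deposited numbers exactly. Genes were tested with limma 3.58.1 in R 4.3.3 (trend, robust, 2-sided) on log2(CPM + 1), with adjusted p of 0.05 over all 17865 tested genes. The recovered reads were also tested with DESeq2 1.42.0 and with the quasi-likelihood test of edgeR 4.0.16. The steps were tested on simulated reads.

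Alternatives were TMM and median-ratio scaling, pseudocounts of 0.25 and 4 CPM, no filter and a mean of at least 5 CPM, the title number as a block, and each library left out. The members and lists were chosen with earlier results of these data known. Values per library were given for the 12 members with the smallest p, the 3 most abundant of each family and the HSF1-inducible list, for up to 3 genes by smallest p of each other list, and for Hsf1. Other members are named with values and no test. Exon lengths, overlaps and shared 50-base words come from GENCODE M21, and promoters from RefSeq.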

Additional observations from a re-analysis of the deposited data

How the results depend on the processing

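With 2 libraries a group, precision is limited by their number and by 1 read being worth 0.574 to 0.695 CPM, so members of a few CPM rest on few reads. The limma count of genes past the threshold, 0, was 94 with no filter on low values, 2 with DESeq2 and 0 to 904 with a library left out (904 without duct 2, 673 without duct 1). The count of members past it stayed 0 apart from 0 to 2 with a library left out. Members higher in both tip libraries (20) numbered 11 with TMM scaling, 10 with median-ratio scaling and 25 to 35 with a library left out (32 without tip 2, 32 without duct 1 and 35 without duct 2), where fewer libraries have to separate. Members lower in both (9) numbered 15 and 15 under those scalings and 11 to 21 with a library left out (21 without duct 1 and 14 without duct 2). The shares of all genes were not obtained under median-ratio scaling or with a library left out. The member counts under those settings therefore do not show whether members differ from genes in general. The members' median fold of 0.19 was 0.0060 with TMM, -0.029 with median-ratio scaling, -0.0071 in edgeR and -0.044 in DESeq2, and the cause was not tested. The J protein over HSP70 difference of 0.43, whose alternatives were chosen after seeing the data, was 0.35 without Hspa5, Hspa8 and Dnajb1 and 0.38 to 0.48 with a library left out.

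The title numbers need not pair the libraries: the library titled Tip 2 has a different number in its description, and the deviations of same-numbered libraries correlated at r = 0.15 across genes, over 2 pairs. With the replicate number as a block, limma passed 0 genes and 0 members, the median fold was 0.19, and the Hsph1 to Hspa4 difference of -0.26 was 0.55 within number 1 and -1.06 within number 2. With a library left out it ran from -0.79 to 0.28, and that of Hspa1a plus Hspa1b to Hspa8 (0.11) from -0.10 to 0.32.

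TMM scaling changed the sign of the fold of 14 tested members, 6 of them among those chosen by the rule for named members and 8 others (Hspa4, Hspa13, Dnajb5, Dnajb6, Dnajb7, Dnajb12, Dnajc1 and Dnajc11). For the 6, the folds under TMM, median-ratio scaling, edgeR and DESeq2, in that order, are given after each name: Dnajc13 (-0.054, -0.091, -0.060 and -0.097), Dnajc3 (-0.19, -0.22, -0.20 and -0.23), Hspd1 (-0.11, -0.15, -0.11 and -0.15), Hsp90b1 (-0.079, -0.12, -0.078 and -0.12), Hspb1 (-0.024, -0.061, -0.051 and -0.087) and Hspa1b (-0.044, -0.080, -0.051 and -0.088). With a library left out, the fold ran from -0.25 to 0.052 for Dnaja2, -0.28 to 0.17 for Dnajb9, -0.10 to 0.12 for Dnajc3, -0.38 to 0.16 for Hsph1, -0.0515 to 0.22 for Hspd1, -0.24 to 0.59 for Hspb1 and -0.98 to 0.72 for Hspa4l. Under all alternatives together, 376 values of named members kept direction and side of the threshold, 36 changed sign and 2 passed the threshold.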
